A study of Mus musculus with 8 samples.

Results

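Keratins and genes of the epidermal barrier were followed in arrays of mouse tibialis anterior, the fast muscle at the front of the shin. They comprised each non-control probe whose gene name was Krt followed by a number only, or was Lor, Ivl, Krtdap, Dmkn, Sbsn, Sfn, Perp, Evpl, Ppl, Grhl3 or Trp63. There were 81 such probes for 59 genes, 48 keratins and 11 barrier genes, among 56605 probes for 37074 gene names. Flg, which the rule also named, was not analysed here. The genes were chosen because the array labelled control 4 stood above the other 7 arrays in many of them. That contrast is therefore given as a description, with no test.

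The study asked how gene expression in muscle differs after oral administration of Porphyromonas gingivalis, a bacterium of the periodontal pocket. There were 4 arrays from mice given the bacterium by mouth for 6 weeks and 4 from control mice. All 8 arrays came from male C57BL/6J mice, 8 weeks old at the start and 14 weeks old at sampling. Per the protocol all mice ate High-fat diet 32. The bacteria were given in 100 µL of saline through a feeding needle, and what the control mice were given is not stated in the sources used here. The bacterial dose is likewise not stated. No transgene or deletion was involved. The labels do not say outright that each array is a separate mouse, so p-values measure only the spread between these arrays.

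Keratins are the intermediate filament proteins of epithelial cells and pair as type I with type II. Basal cells of the epidermis make Krt5 with Krt14, and cells leaving the basal layer switch to Krt1 with Krt10. In the outermost living layers loricrin and other proteins are crosslinked beneath the membrane into the cornified envelope, which with secreted lipids forms the barrier of the skin. The main intermediate filament protein of muscle fibres is desmin.

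The sequences of several probes are shown because the results turn on single probes of 60 bases, and because the 2 probes of Krt1, on opposite strands, gave different values. Each is the last 30 bases of the probe, 5′ to 3′, in lower case. Capitals mark AATAAA, the commonest polyadenylation signal, or TTTATT, its reverse complement. The probes of Lor, Krtdap, Dmkn, Krt5, Krt14 and Sfn were brightest on control 4.
Lor, minus strand, chr3:91884206-91884265: attctagtgtctcctcagtcAATAAAtttg
Krtdap, plus strand, chr7:31576045-31576102: agttcccccAATAAAgtgttttccactcaa
Dmkn, plus strand, chr7:31566013-31566072: gtttctctgtggaAATAAAacatgactctt
Krt5, minus strand, chr15:101537514-101537573: tgacttcctccagagtctgtccAATAAAat
Krt14, minus strand, chr11:100064495-100064554: ccttgtccttcctggcaagcAATAAAgctt
Sfn, minus strand, chr4:133156484-133156543: gtgtgaccatgctaccattcAATAAAgttg
Krt1, probe high on control 4, minus strand, chr15:101676107-101676166: atggtaacaatcccactttatgttctgctg
Krt1, probe not high on control 4, plus strand, chr15:101678904-101678963: gcttccttctgccatgaccTTTATTtatta

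Positions are on the mouse build mm9, as the array files give them. AATAAA stood in 12 of the 81 keratin and barrier probes (14.8%), in 8 of the 20 probes raised on control 4 (40%), and in 9.77% of all 56605 probes. TTTATT stood in 2 of the 81 probes (2.47%), in 1 of the 20 raised probes (Krt78, on the minus strand), and in 3.85% of all probes. The 2 motifs were searched on the probe strand over all 60 bases. The raised probes are different sequences: among probes of different genes in the group, the longest identical run was 24 bases, between the hair keratins Krt81 and Krt83, neither of which was raised. The next runs were 16 bases (Krt81 and Krt85) and 14 bases (Krt36 and Krtdap).

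Signals are log2 values of the processed spot intensity less the 75th percentile of the array, so that 0 is the level below which 75% of spots lie, and values near -7 are at the floor given to dim spots. Levels are compared between arrays for 1 probe, never between probes. A gene was read from its probe of highest mean signal and was called detected where that probe was well above background on at least 1 array. Of the 59 genes, 38 were detected (28 keratins and 10 barrier genes), and 21, Ivl among them, were well above background on none of the 8 arrays. Control 4 had 36 of the 59 genes well above background, against 23 to 30 on each of the other 7 arrays. All 8 arrays came from 1 slide and 1 scan, with 56.3% to 59.3% of spots well above background and no saturated spot. The number of arrays limits the precision. P. gingivalis arrays lay in row 2 of the slide and control arrays in row 1, so position on the slide and treatment cannot be told apart.

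The deposited files do not agree on which array is which. To match them, each probe's values were taken less their mean over the 8 arrays, or over the 8 columns. On these deviations each column of the authors' value table followed 1 scanner array closely (correlation over probes 0.833 to 0.880, against at most 0.0784 for any other array). That array bore the column's own label for 2 of the 8 columns and belonged to the column's group for 4. The scanner array labelled control 4 is the column labelled P. gingivalis 3. Taken in the order of their labels, controls 1 to 4 and then P. gingivalis 1 to 4, the columns match the arrays in slide order: within each slide column, row 1 before row 2. The labels and files do not settle which naming is right. Arrays are named here by the scanner files, and the values under the other naming are given below.

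On control 4, 16 of the 38 detected genes stood at least 2-fold above the highest of the other 7 arrays: 10 keratins and 6 barrier genes. Over all 23752 detected genes the share was 0.682%, 162 genes. The keratin and barrier genes were chosen on this contrast, so nothing is read from that gap. Krt15, Krt23, Krt77 and Krt78 were detected on control 4 alone and entered the 38 only through it. Of the 34 genes detected on at least 1 other array, 12 were 2-fold above, against 47 of 23421 over all such genes (0.201%). With normexp background correction the 16 became 11: the differences of Krt15 (0.26), Krt23 (0.86), Krt77 (0.27), Krt78 (0.24) and Krt79 (0.82) were then under 1 on the log2 scale. That correction was run with an offset of 50 added to every signal, which by construction makes log2 differences between dim spots smaller. The median processed signal of an array was 15.8 to 21.1. The median difference between control 4 and the median of the other 7 was 0.87 on the log2 scale over the 38 genes and -0.0021 over all detected genes. It was 0.078 with normexp, 0.31 over all 59 genes without the detection filter, and 0.47 in the matched columns of the value table. Control 4 was the highest array for 22 of the 38 genes (12.6% of all detected genes) and the lowest for 3. For 14 genes it lay within 0.5 of the median of the others. Set against its own other 7, P. gingivalis 4 had 1 such gene (Krt75), and each remaining array had 0. Over all genes that count ran from 36 to 90 on those arrays.

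**Figure D1:**
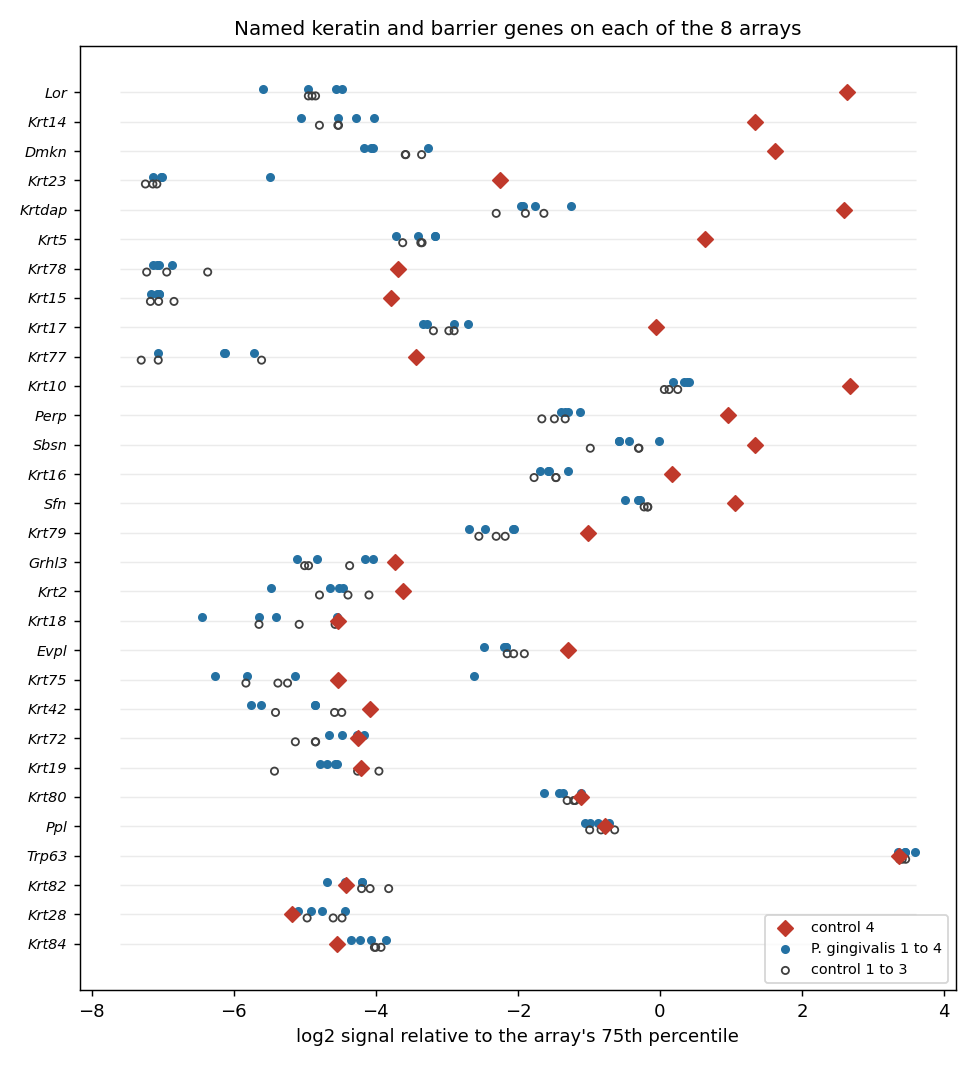
Log2 signal relative to the array's 75th percentile (horizontal) of the 30 named genes (rows, ordered by the difference of control 4 from the median of the other 7) on control 4 (red diamonds), P. gingivalis arrays (blue) and control arrays 1 to 3 (open circles). From Lor down to Krt79 control 4 lies at least 2-fold right of every other array, and from Krt72 down it lies among them, level with the highest (Krt80) or left of them.

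Keratins of the basal layer were raised. Krt14, the type I partner of the basal pair, stood at 1.34 on control 4, against -4.28, -4.03, -5.05 and -4.54 on the P. gingivalis arrays and -4.79, -4.52 and -4.53 on controls 1 to 3. Krt5, its type II partner, stood at 0.64 on control 4, against -3.71, -3.17, -3.41 and -3.16 on the P. gingivalis arrays and -3.37, -3.62 and -3.35 on controls 1 to 3. Both genes split the arrays as 1 against 7, with no other array near control 4. The differences from the median of the other 7 were 5.87 for Krt14 (58.6-fold) and 4.0 for Krt5 (16.04-fold). With normexp the difference of Krt14 was smaller, as given in the last section. Krt15, a basal and hair bulge keratin, stood at -3.78 on control 4 and was well above background there alone. Its other 7 arrays ran from -7.17 to -6.84, so its signal on control 4 was at least 2.45-fold higher. That bound takes, on each of the 7 arrays, the higher of the probe's own signal and the dimmest signal well above background, and this and the bounds below hold for the processed intensity. With normexp Krt15 differed by 0.26 on the log2 scale.

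Keratins of the suprabasal layers were also raised. Krt10, the suprabasal type I keratin, stood at 2.68 on control 4, against 0.38, 0.19, 0.34 and 0.40 on the P. gingivalis arrays and 0.25, 0.06 and 0.13 on controls 1 to 3, a difference of 2.43 (5.38-fold). Krt10 was thus well above background on all 8 arrays, and control 4 was the only array clear of the rest. Krt77, a suprabasal type II keratin in the mouse, stood at -3.44 on control 4, against -7.30 to -5.61 on the other 7 arrays, where it was not well above background (at least 3.10-fold higher; 0.27 on the log2 scale with normexp). Krt2, of the upper layers, stood at -3.62 on control 4, against -5.48 to -4.10 on the others, and so did not reach 2-fold. Krt9, the keratin of palm and sole skin, stood at -4.05 on control 4, within the range of -4.21 to -3.61 on the others.

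Krt1, the partner of Krt10, depended on the probe. The probe on the minus strand, the strand that the neighbouring probes of Krt2 and Krt77 also read, stood at 0.20 on control 4, against -7.03, -6.27, -7.04 and -7.05 on the P. gingivalis arrays and -7.11, -7.13 and -7.25 on controls 1 to 3. It was well above background on control 4 alone, at least 38.6-fold higher there. The brighter probe by the mean over arrays, on the plus strand, stood at -5.38 on control 4 and between -7.13 and -5.05 on the others, and was well above background on P. gingivalis 2 alone. Whether the plus-strand probe reads the Krt1 transcript was not tested. The counts above use the brighter probe and therefore leave Krt1 out; counting any probe, 17 genes had a raised probe, and 20 of the 48 detected probes were raised.

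Krt16 and Krt17, keratins of hair follicles and of wounded or stressed epidermis, moved with the epidermal pairs. Krt17 stood at -0.05 on control 4, against -2.89, -3.34, -2.71 and -3.28 on the P. gingivalis arrays and -3.19, -2.90 and -2.97 on controls 1 to 3, a difference of 2.92 (7.57-fold). Krt16 stood at 0.17 on control 4, against -1.77 to -1.30 on the others (3.33-fold), and its second probe differed by 1.47. Their type II partners carry letters in their names and so fell outside the rule. Krt6b stood at 0.26 on control 4, against -5.95 to -3.95 on the others (35.4-fold). Only 3 of those others were well above background, so that fold rests on dim values. Krt6a stood at -0.05 on control 4, against -1.81 to -0.77, a difference of 1.48 that left it less than 2-fold above the highest of them.

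Loricrin, the main protein of the cornified envelope, was also raised. Lor stood at 2.63 on control 4, against -5.58, -4.47, -4.57 and -4.95 on the P. gingivalis arrays and -4.95, -4.90 and -4.85 on controls 1 to 3. The difference was 7.53 (185-fold), but the probe was well above background on only 3 of the other 7 arrays, so the fold rests on dim values. With normexp the difference was smaller, as given in the last section. The 2 plakins that link the envelope to keratin filaments did not follow it to that extent. Evpl, envoplakin, stood at -1.30 on control 4, against -2.48 to -1.91 on the others. Ppl, periplakin, stood at -0.78 on control 4, within the range of -1.06 to -0.64 on the others.

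Dmkn, Krtdap and Sbsn, which encode secreted proteins of differentiating keratinocytes, lie next to each other on chromosome 7, between positions 31540994 and 31576045. All 3 were raised, and they were the only detected genes in that interval. Dmkn stood at 1.62 on control 4, against -3.26, -4.07, -4.16 and -4.04 on the P. gingivalis arrays and -3.58, -3.59 and -3.35 on controls 1 to 3 (36.8-fold). Krtdap stood at 2.59 on control 4, against -1.26, -1.96, -1.93 and -1.76 on the P. gingivalis arrays and -1.63, -2.30 and -1.89 on controls 1 to 3 (22.4-fold), and its other 2 probes stood at 0.58 and 0.70 on control 4, where only 1 and 2 of the other 7 arrays were well above background, so no fold is given for them. In both genes control 4 was far from a tight group of 7. Sbsn stood at 1.34 on control 4, against -0.98 to -0.01 on the others (3.42-fold).

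Sfn encodes the epithelial 14-3-3 sigma protein and Perp a membrane protein of desmosomes. Perp stood at 0.96 on control 4, against -1.66 to -1.13 on the others (4.91-fold). Sfn stood at 1.06 on control 4, against -0.50 to -0.17 on the others (2.55-fold). The 2 transcription factors of the group were not 2-fold above on control 4. Trp63, the master regulator of stratified epithelia, stood at 3.36 on control 4, within the range of 3.36 to 3.58 on the others, and its other 3 detected probes differed by 0.24 to 0.56. Grhl3, a regulator of barrier formation, stood at -3.73 on control 4, against -5.10 to -4.03 on the others.

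Keratins of simple epithelia, hair and other sites mostly stayed with the other arrays. Krt23 stood at -2.25 on control 4, against -7.24 to -5.49 on the others, none of them well above background (at least 7.08-fold higher). Krt78 stood at -3.69 on control 4, against -7.22 to -6.37 on the others (at least 2.61-fold higher). With normexp the log2 differences were 0.86 for Krt23 and 0.24 for Krt78. Krt79, a keratin of the upper hair follicle in the mouse, stood at -1.01 on control 4, against -2.69 to -2.06 on the others (2.46-fold; 0.82 on the log2 scale with normexp). Among keratins of simple epithelia, Krt18 stood at -4.54 on control 4, against -6.45 to -4.55 on the others, and Krt19 at -4.21, within the range of -5.43 to -3.96 on the others. Of 6 detected hair shaft keratins (Krt31, Krt81, Krt82, Krt84, Krt85 and Krt86), 0 were 2-fold above, with differences from -0.52 to 0.07. Of 3 detected keratins of the inner root sheath or companion layer (Krt28, Krt72 and Krt75), 0 were 2-fold above; Krt75 was highest on P. gingivalis 4, at -2.62. Krt80 differed by 0.20 at its brightest probe, and 2 dim probes, well above background on control 4 alone, were at least 1.77- and 1.24-fold higher there.

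**Figure D2:**
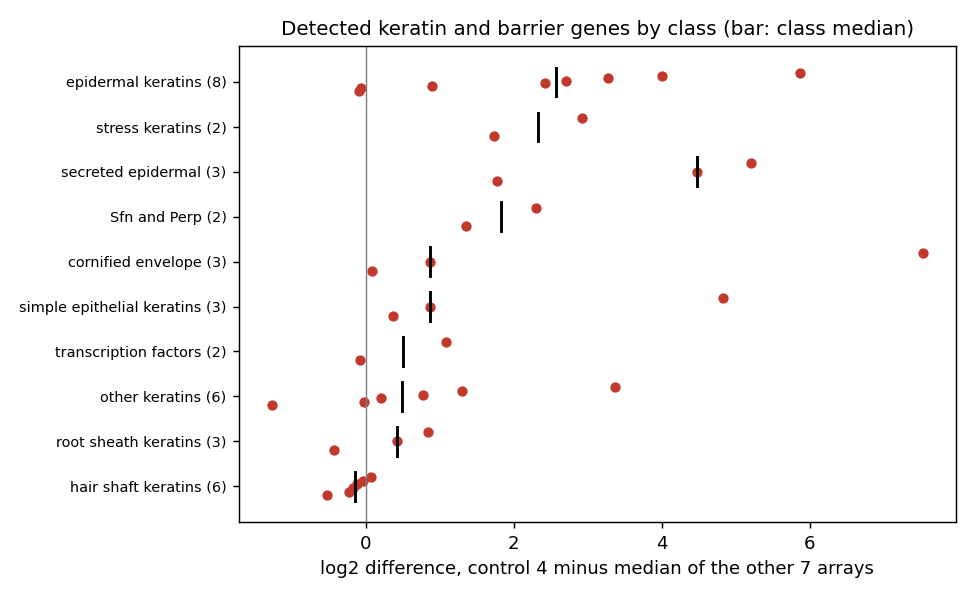
Log2 difference between control 4 and the median of the other 7 arrays (horizontal) for the 38 detected genes, 1 point a gene, by class (rows, number of detected genes in brackets), with the class median as a black bar. Genes detected on control 4 alone are plotted at their measured difference, not their bound. Krt1 is plotted by its brighter probe, which was not raised. The medians are 2.56 for epidermal keratins (1.46 with bounds), 4.48 for the secreted proteins and -0.14 for hair shaft keratins.

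By class, 5 of 8 detected epidermal keratins (median difference 2.56, or 1.46 with Krt15 and Krt77 at their bounds), both stress keratins (2.33), 3 of 3 secreted proteins (4.48), both of Sfn and Perp (1.82) and 1 of 3 envelope proteins (0.86) were 2-fold above. The same held for 1 of 3 simple epithelial keratins (0.87) and 2 of 6 other keratins (0.48), with 0 of 6 hair shaft keratins (-0.14), 0 of 3 root sheath keratins (0.41) and 0 of 2 transcription factors (0.50). Krt1 was read from its brighter probe in these and the following counts, and so was counted as not raised. Detected keratins of chromosome 11, where the type I cluster lies, were 2-fold above in 6 of 13 cases. Those of chromosome 15, with the type II cluster, were so in 4 of 14 cases. Just inside the 2-fold limit were Krt79, Sfn and Sbsn, which stood 1.05, 1.23 and 1.35 above the highest other array. Just outside were Evpl, Krt2 and Krt42, at 0.61, 0.47 and 0.39. The outermost raised spots lay in rows 58 and 384 of 384 and in columns 4 and 163 of 164. How evenly the raised spots lay between these limits was not tested.

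Genes that work with these proteins were compared on control 4 in lists by known function, drawn up with earlier results of these data known. Over all detected genes 0.682% were 2-fold above, and 0.201% over genes detected on at least 1 other array. Given how the lists were chosen, nothing is read from the gaps to those shares. Of 43 detected genes of the cornified envelope and its processing, 30 were 2-fold above (median difference 3.76), 23 of them detected on control 4 alone. Of the 20 detected elsewhere too, 7 were 2-fold above, and with bounds for the 23 the median was 2.48. The mean score of the list was 3.17 on control 4 (2.16 with bounds), against -0.067 to 0.133 on the others. Lce1a1, Lce1b and Sprr2d, small precursors crosslinked into the envelope, were at least 32.1-, 18.2- and 16.99-fold higher on control 4. Of 9 detected desmosome genes 5 were 2-fold above (median 1.81, or 0.26 with bounds), and 4 of the 9 were detected on control 4 alone. Pkp1, a desmosomal plaque protein, and Dsp, desmoplakin, were at least 13.9- and 10.1-fold higher, and Cdsn, corneodesmosin of the cornified layer, stood at -1.49 on control 4, against -7.19 to -4.76 on the others, of which 2 were well above background. Of 9 detected genes of barrier lipid synthesis 3 were 2-fold above (median 0.35), all 3 detected on control 4 alone. These were Acer1, a ceramidase, Elovl4, which elongates very long fatty acids, and Cers3, a ceramide synthase, at least 4.47-, 5.31- and 3.43-fold higher.

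Other epithelial lists held fewer such genes. Of 9 detected genes of the basal membrane anchorage only Lad1, ladinin, was 2-fold above, at least 5.31-fold higher (list median 0.23), while Lamb3 differed by -0.78 and Lama3 by 0.42. Of 6 epidermal transcription factors (median 0.37) and 9 general epithelial genes (0.27), 0 were 2-fold above. In those lists Grhl1 differed by 1.29, Zfp750 by 0.97 and Klf4 by 0.53, and Rab25 and St14 were at least 1.16- and 1.35-fold higher, with Elf3 not well above background on control 4. The 30 detected hair shaft and follicle genes, mostly keratin-associated proteins, had 0 genes 2-fold above and a median of 0.00. The 3 detected sebaceous genes likewise had 0 (0.19).

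Other cell types that a muscle sample can hold were compared on control 4 in the same way. No gene was 2-fold above in the lists for melanocytes (7 detected, median difference -0.24), neutrophils (11, -0.02), macrophages (6, 0.00), fibroblasts (7, -0.24), tendon (6, 0.05), adipocytes (7, -0.74), Schwann cells (6, 0.01), endothelium (6, 0.24), erythroid cells (6, 0.23) or skeletal muscle (9, -0.14). Over all detected genes only 0.682% were 2-fold above, so nothing is read from a count of 0 in lists this short. The muscle genes marked the tissue as labelled: all 9 were detected, and Tnni2, Myh4 and Tnnt3 were well above background on all 8 arrays, Tnni2 at 9.77 on control 4, against 9.93 to 10.09 on the others. The mean score of the muscle list was -0.141 on control 4, against -0.126 to 0.069 on the others. S100a8 and S100a9, made by neutrophils and also by stressed keratinocytes, were high on control 4 (-0.21 and 1.20) but nearly as high on controls 1 and 2 (S100a8 -1.21 and -1.11, S100a9 0.65 and 0.67). In a bulk sample, fewer cells of a type and less RNA per cell cannot be told apart. The endothelial score was 0.312 on control 4, against -0.230 to 0.221 on the others, and the neutrophil score 0.718, within the range of -0.671 to 0.997. The adipocyte score was -0.581 on control 4, within the range of -0.853 to 0.420 on the others. The part of any other cell type in the keratin values was not tested.

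**Figure D3:**
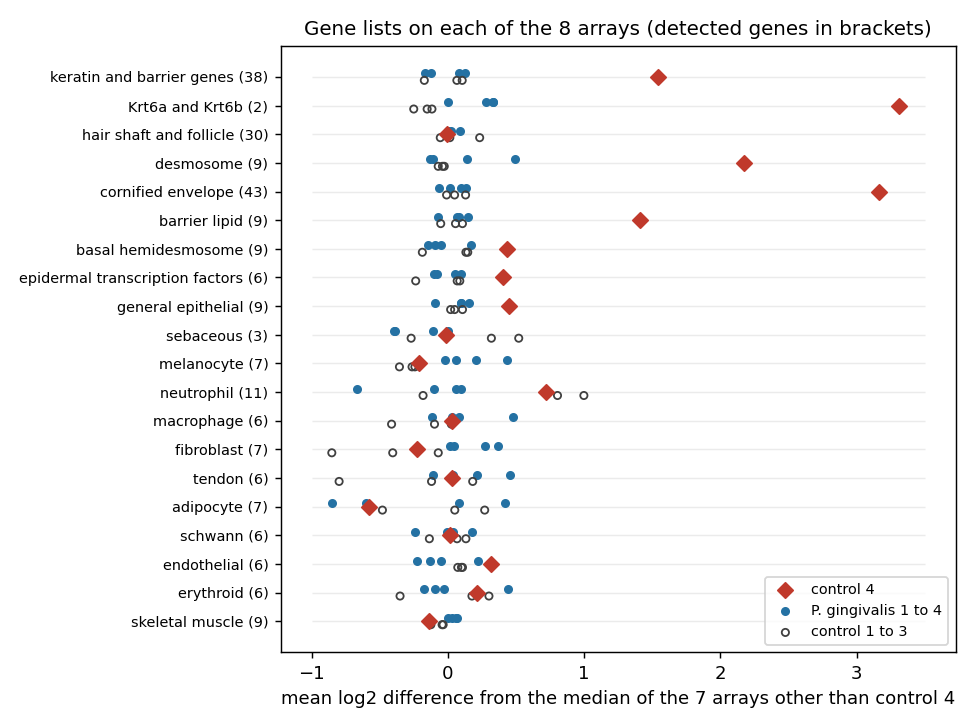
Mean log2 difference from the median of the 7 arrays other than control 4 (horizontal) for each gene list (rows, detected genes in brackets) on control 4 (red diamonds), P. gingivalis arrays (blue) and controls 1 to 3 (open circles). Control 4 stands at 3.17 for the cornified envelope, 2.17 for desmosomes and 1.54 for the keratin and barrier genes (2.16, 1.32 and 1.35 with genes detected on control 4 alone at their bounds), while for hair, fibroblast and Schwann cell lists it lies within the range of the others.

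The 162 raised genes comprised 16 of the keratin and barrier genes, 40 of the other epithelial lists and 106 in neither. Of the 162, 47 were detected on at least 1 other array, and the rest were detected on control 4 alone. The shares below, by chromosome and by stretch, count both kinds. Chromosome 3 held 33 of them (2.87% of its detected genes), chromosome 7 held 19 (1.06%), and chromosomes 11 and 15 held 11 each (0.613% and 1.15%). Between positions 91884206 and 93137281 of chromosome 3, the stretch from Lor across the Lce and Sprr genes, 27 of 44 detected genes were 2-fold above (61.4%). The same count was 6 of 43 (14.0%) across the keratin stretch of chromosome 11 and 5 of 18 (27.8%) across that of chromosome 15. The stretches were bounded by these gene families themselves, so nothing is read from their shares. Apart from all lists, the 10 genes with the widest gap between control 4 and the highest other array were Stfa1, BC100530, 2310050C09Rik, Kprp, Serpinb5, 2310046K23Rik, AK030177, Crisp3, Crct1 and Stfa3. Stfa1, a cysteine protease inhibitor of the stefin A family, was at least 74.0-fold higher on control 4, Kprp, keratinocyte proline-rich protein, at least 14.5-fold, and Serpinb5, maspin, at least 11.98-fold. BC100530, now Cstdc5, was at least 105.5-fold higher. The gap was measured over the 8 arrays. For all of the 10 but Stfa3 the other 7 arrays were not well above background, so no order among the 10 is read.

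The comparison of P. gingivalis with control arrays was fitted by limma over 31649 probes well above background on at least 4 of 8 arrays. At an adjusted p under 0.05, 0 probes passed (0% of 21307 genes and of 31649 probes), and 3544 probes had an unadjusted p under 0.05 (11.2%). Of the 59 keratin and barrier genes, 30 could be tested, of which 24 were lower and 6 higher in P. gingivalis, with a median log2 difference of -0.32. Over all tested genes 54.6% were lower and the median was -0.016. The lowest adjusted p of the 30 was 0.433. Without control 4, 15 were lower and 15 higher, and the median was -0.015 (all tested genes -0.020, 55.2% lower).

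Lor averaged -4.89 ± 0.50 in P. gingivalis and -3.02 ± 3.77 in control arrays (SD, n = 4 each), a difference of -1.88 ± 1.61 (SE, limma adjusted p = 0.679). Without control 4 the 3 remaining controls averaged -4.90 ± 0.05 and the difference was 0.01. Krt14 averaged -4.47 ± 0.43 in P. gingivalis and -3.13 ± 2.98 in control arrays (SD, n = 4 each), and its difference of -1.35 was 0.14 without control 4. For Dmkn the difference was -1.66 with all arrays and -0.38 without control 4, and for Krt5 it was -0.94 and 0.08. For these 4 genes the spread between the controls was larger than the difference between groups.

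At an unadjusted p under 0.05, 1 of the 30 genes was higher in P. gingivalis (4.97% of all tested genes) and 0 were lower (5.95%). Groups did not overlap for 2 genes higher (3.17% of all genes) and 2 lower (3.61%) in P. gingivalis. The hair keratin Krt85 stood at -2.56, -2.93, -3.07 and -2.97 in P. gingivalis, against -3.10, -3.55, -3.13 and -3.11 in control arrays, a difference of 0.34 ± 0.14 (SE, limma adjusted p = 0.433). Krt86, another hair keratin, was 0.44 higher without overlap. Evpl and Sfn were the 2 lower without overlap, with differences of -0.40 and -0.47. Counts of 0 to 2 among 30 genes are too small to be read against those shares. They use 1 probe a gene, and a dimmer Trp63 probe, well above background on all 8 arrays, went the other way from the probe counted. It differed by -0.76 (limma unadjusted p = 0.0033, adjusted p = 0.323), and by -0.695 without control 4 (limma adjusted p = 0.407). The counted Trp63 probe differed by 0.058. Without control 4, Krt85 (0.38) and the root sheath keratin Krt72 (0.55 ± 0.14 SE, limma adjusted p = 0.393) had an unadjusted p under 0.05 (4.90% of all genes higher, 5.55% lower, 0 lower here), and 3 genes were higher (5.03%) and 2 lower (6.68%) without overlap. All 30 adjusted p were at least 0.393 in both fits.

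**Figure D4:**
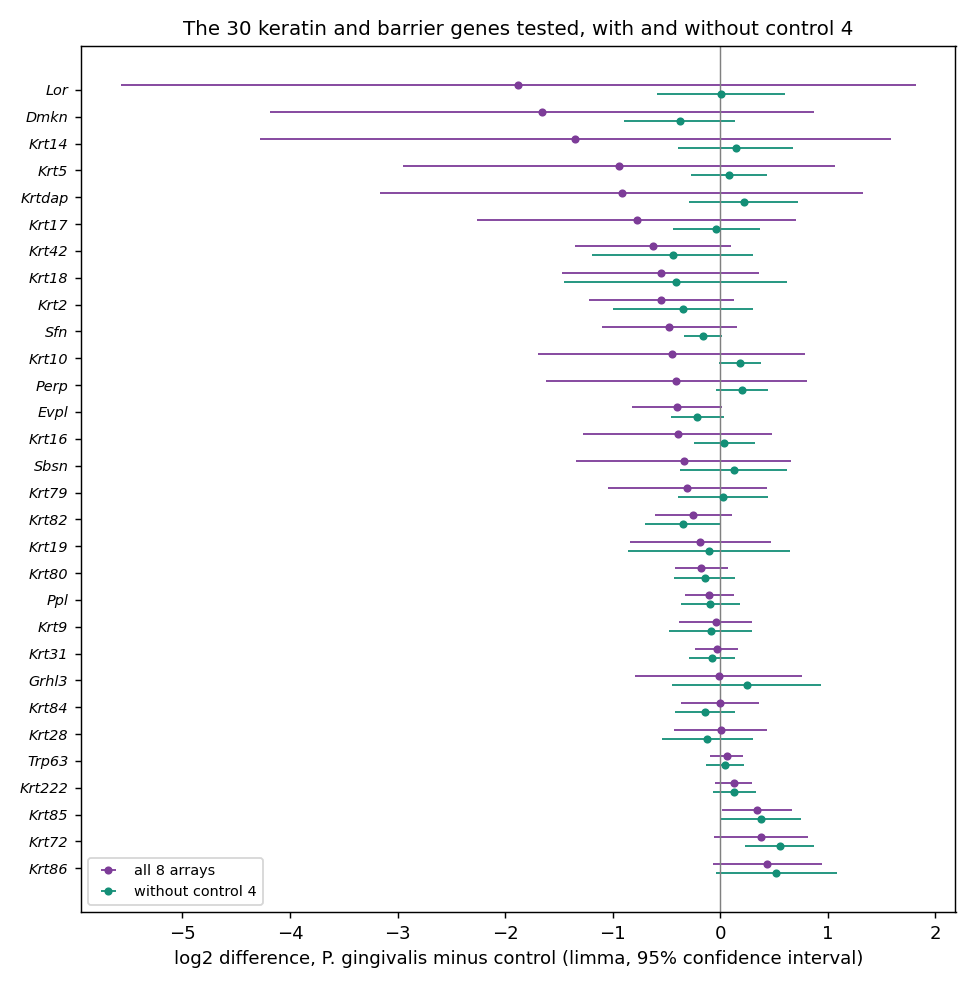
Log2 difference between P. gingivalis and control arrays with its 95% confidence interval from limma (horizontal) for the 30 tested genes (rows), with all 8 arrays (purple) and without control 4 (green). For Lor the difference is -1.88 with all arrays and 0.01 without control 4, and the wide intervals of the raised genes narrow.

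In the authors' deposited value table, named by its own labels, the array with the raised genes is the column P. gingivalis 3. That table held 24 of the genes, and 10 of them stood at least 2-fold above all other columns in that column. The share over all genes of that table was not computed, so nothing is read from this count. Of 11 genes raised on control 4 that the table held, 11 were higher in P. gingivalis under the table's own labels (median difference 0.59) and 0 once each column took the label of its scanner array (median -0.47). These genes were chosen because this 1 array was high in them, so both counts follow from the label that it carries. Their direction between the groups therefore depends on which file's labels are used. Nothing about the groups is read from it. Krt10 differed by 0.69 under the table's own labels and by -0.47 with matched columns.

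**Figure D5:**
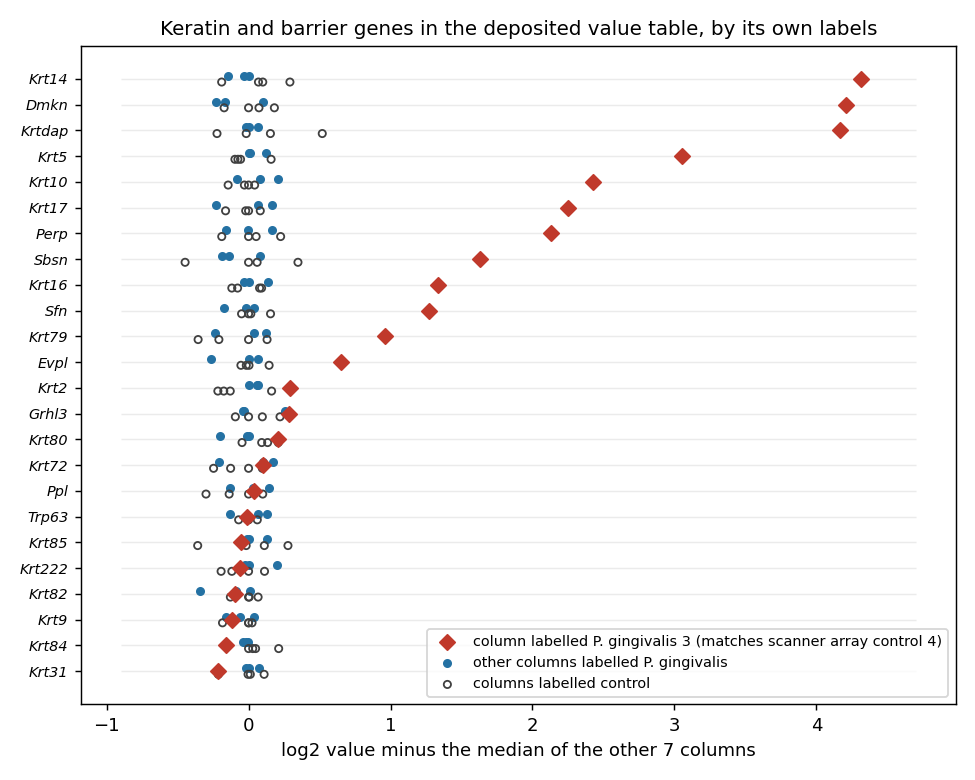
Log2 value minus the median of the other 7 columns (horizontal) for the 24 genes in the deposited value table (rows), in the column labelled P. gingivalis 3 (red diamonds), the other columns labelled P. gingivalis (blue) and the columns labelled control (open circles). The column labelled P. gingivalis 3 stands 4.32 above the others for Krt14, 3.05 for Krt5 and 2.42 for Krt10.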

How the data were processed

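Per the file headers and the labels' protocols, total RNA of tibialis anterior was labelled with Cy3 (200 ng per sample). It was read on Agilent arrays with probes on mm9. Spot intensity values, as deposited by the authors, came from Agilent Feature Extraction (11.0.1.1 per the file headers, 11.1 per the submitters' processing notes), background-subtracted and detrended, with dim spots set to a surrogate, and not normalized between arrays. The authors' deposited value table holds log2 signals of 24764 probes with nearly equal quantiles, and the exact scaling is not given in the sources used here.

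Here, log2 of the processed intensity less each array's 75th percentile was averaged over spots of a probe. A gene was represented by its probe of highest mean log2 signal. Groups were compared with limma 3.58.1 (lmFit and eBayes in R 4.3.3) without covariates, and p-values were adjusted over 31649 probes by the Benjamini-Hochberg method; the code was tested on simulated data. Control 4 against the other 7 arrays received no test. Named were the detected barrier genes, up to 20 keratins by the size of the control 4 difference, 3 genes per list and the 10 most alike genes; the genes and the 19 gene lists were chosen with earlier results of these data known. A list score is the mean over detected genes of the difference from the median of the 7 other arrays. Alternatives covered background correction, normalization, filter, probe choice, value table, block, trend and each array left out. Figures were drawn with matplotlib 3.10.9.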

Additional observations from a re-analysis of the deposited data

Results flagged for a closer look

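Within each group of 4 arrays, an array was singled out by Dixon's test. Its gap to the nearest other, divided by the range of the 4 arrays, had to exceed the 95% critical value. Of 100 such tests on genes and list scores 24 were singled out, 19 of them on control 4. Chance alone singles out about 1 test in 20, but the genes were chosen because control 4 was high, so those 19 are a description and are not read against that rate.

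Control 4 stood above the other control arrays for Lor (2.63), Krtdap (2.59), Dmkn (1.62), Sfn (1.06), Perp (0.96), Krt14 (1.34), Krt5 (0.64), Krt10 (2.68), Krt16 (0.17), Krt17 (-0.050), Krt15 (-3.78) and Krt23 (-2.25), all as log2 signal. It stood below them for the hair keratin Krt84 (-4.54, others -4.02 to -3.93). Among list scores it stood above them for the keratin and barrier genes (1.54), Krt6a and Krt6b (3.31), desmosomes (2.17), the cornified envelope (3.17), barrier lipids (1.41) and endothelium (0.31).

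In the P. gingivalis group the remaining 5 were Dmkn on P. gingivalis 1 (-3.26), Krt23 on P. gingivalis 1 (-5.49, not well above background), Sfn on P. gingivalis 3 (-0.50), Evpl on P. gingivalis 4 (-2.48) and the score of Krt6a and Krt6b on P. gingivalis 3 (-0.0022).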

How the results depend on the processing

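The number of probes past the adjusted threshold was 0 in the main comparison of P. gingivalis with control arrays. It was 2 with no filter on dim probes, 14 with normexp background correction, 1 with matched columns of the value table and 2 with an intensity trend, none of them keratin or barrier probes. It was 0 under quantile normalization, the value table's own labels and every array left out in turn. The replicate numbers did not pair the arrays (correlations of deviations 0.0069 to 0.0629), and with replicate as a block 0 probes passed and the median of the tested keratin and barrier genes was -0.32.

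That median was 0.15 under the value table's own labels, -0.027 with normexp, -0.10 with no filter, -0.21 with matched columns, and -0.50 to -0.015 with each array left out. The median difference of control 4 from the others was 0.078 with normexp, 0.31 over all 59 genes with no detection filter, 0.99 with the mean of a gene's probes, 0.47 in matched columns of the value table, and 0.82 to 1.001 with another array left out. The count of genes 2-fold above on control 4 was 16, against 11 with normexp (Lor 4.59, Krt14 3.45, Krt23 0.86, Krt79 0.82, Krt77 0.27, Krt15 0.26 and Krt78 0.24), 17 with the mean of probes and 10 of 24 in the value table, which holds fewer of the genes. Leaving out control 4 gives no value for these results. The normexp offset of 50 by construction makes log2 differences between dim spots smaller, and how much of the normexp shift it accounts for was not tested. The cause of the other shifts was not tested.

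Differences between P. gingivalis and control arrays changed sign as follows, none with an adjusted p under 0.05. With normexp they were 0.17 for Grhl3, -0.015 for Trp63, 0.081 for Krt2, 0.072 for Krt18, 0.086 for Krt42, 0.16 for Krt84, 0.13 for Krt19 and 0.071 for Krt82. With quantile normalization they were 0.021 for Grhl3 and 0.033 for Krt84, and with matched columns 0.0023 for Grhl3 and 0.085 for Krt84. Under the value table's own labels they were 0.95 for Krtdap, 0.96 for Dmkn, 0.36 for Sbsn, 0.25 for Sfn, 0.51 for Perp, 0.094 for Evpl, 0.10 for Ppl, 0.062 for Grhl3, 0.97 for Krt14, 0.81 for Krt5, 0.59 for Krt17, 0.69 for Krt10, 0.37 for Krt16, 0.33 for Krt79 and 0.20 for Krt2. With each array left out the ranges were -2.52 to 0.0054 for Lor, -1.41 to 0.22 for Krtdap, -0.65 to 0.12 for Sbsn, -0.67 to 0.21 for Perp, -1.90 to 0.14 for Krt14, -1.34 to 0.081 for Krt5, -0.69 to 0.18 for Krt10, -0.61 to 0.037 for Krt16, -0.49 to 0.027 for Krt79, -0.18 to 0.25 for Grhl3, -0.12 to 0.12 for Krt28 and -0.14 to 0.075 for Krt84. For Lor, Krtdap, Sbsn, Perp, Krt14, Krt5, Krt10, Krt16 and Krt79 the upper end is the value without control 4.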
